A study of Mus musculus with 6 samples.

Results

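The 48 genes described here encode the machinery that copies DNA and the enzymes that prepare a cell for S phase. They were chosen by name from the table of 28892 genes: the origin recognition complex, the licensing factors and their inhibitor, the MCM helicase and its activators, the sliding clamp and its loader, polymerases and primase, Okazaki fragment enzymes, nucleotide supply, replication protein A, chromatin assembly with maintenance methylation, and 2 recombination repair genes. RNA sequencing compared C2C12 Myod1-/- cells with C2C12 WT cells, with 3 libraries of each genotype. C2C12 is a mouse myoblast line that descends from satellite cells of a C3H mouse, and Myod1 is the transcription factor that specifies skeletal muscle. Both genotypes had spent 6 days in the serum-free medium Ndiff227. The C2C12 Myod1-/- cells descend from 1 clone made with CRISPR/Cas9 and puromycin selection and grew as floating spheres in this medium, whereas C2C12 WT cells formed no spheres and, by the study's description, differentiated into structures like myotubes. Clone, muscle differentiation, shape of the culture and genotype can therefore not be told apart. The labels do not say whether the 3 libraries of a genotype came from separate cultures, so the p-values cover the spread among the sequenced libraries alone, which may be technical.

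Before S phase, the origin recognition complex and the loading factors Cdc6 and Cdt1 place the ring-shaped MCM helicase on origins, and geminin, the product of Gmnn, binds Cdt1 and blocks further loading. Cdc45 and the GINS complex then turn the ring into an active helicase, and the polymerases work behind it, held on the DNA by the clamp PCNA that replication factor C loads. Many of these genes are known targets of the E2F transcription factors, which are released from the retinoblastoma proteins at the G1/S transition. Myoblasts leave the cell cycle when they differentiate into myotubes, and the genes of DNA replication are commonly read as markers of cycling cells.

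The 6 libraries separated by genotype. Correlations of log2 values were 0.975 to 0.982 within a genotype and 0.797 to 0.811 between genotypes. Read numbers are not given, but the steps between low FPKM values put the depths of the C2C12 Myod1-/- libraries at 1.05 to 1.09 and those of the WT libraries at 1 to 1.13 relative to WT replicate 1. Mitochondrially encoded genes took 5.07% to 5.25% of the summed FPKM in C2C12 Myod1-/- libraries and 7.32% to 8.49% in WT libraries. Myod1 itself averaged 0.0205 FPKM in C2C12 Myod1-/- cells and 23.6 FPKM in WT cells, and was listed at 0 in 2 of the 3 Myod1-/- libraries. The summed level of 8 skeletal muscle markers (Myod1, Myog, Des, Myh3, Acta1, Ckm, Tnnc2 and Mymk) was 14.3 to 15.0 FPKM in C2C12 Myod1-/- libraries, almost all of it Des, and 2609 to 2809 FPKM in WT libraries. Leukocyte markers summed to 0.474 to 0.676 FPKM in Myod1-/- libraries and 0.467 to 0.737 FPKM in WT libraries. Endothelial, epithelial and neural stem cell markers summed to at most 0.291 FPKM in any Myod1-/- library and 0.393 FPKM in any WT library, and Sox1 and Sox2 were listed at 0 in all 3 Myod1-/- libraries. These are RNA levels. Msi1, most of the neural stem cell sum, averaged 0.264 FPKM in Myod1-/- cells and 0.290 FPKM in WT cells. At the protein level, the study detected Sox1 in the Myod1-/- spheres by immunofluorescence. By immunoblotting it reported higher Sox2 and Msi1 in Myod1-/- cells.

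Promoter sequence was available for 40 of the 48 genes, as windows of 250 bases before and 50 bases after the RefSeq transcription start (GRCm38.p6). The 4 forms of the E2F motif TTTCCCGC, TTTGGCGC, TTTGCCGC and TTTCGCGC were searched on both strands, where a match to one form can overlap a match to another on the opposite strand. At least 1 form was found in 16 of the 40 genes, against 2.6% of all 27025 genes with a window and 4.72% of the 9459 tested genes with one. The windows below are shown because their genes responded in different ways: Mcm5, Rfc3, Brca2 and Uhrf1 fell in C2C12 Myod1-/- cells, Cdt1 rose, and Mcm6, Orc3 and Dnmt1 did not pass the test. Each is written 5′ to 3′ on the strand of the gene, with the matches in capitals.
Mcm5, chr8:75109345-75109374, plus strand: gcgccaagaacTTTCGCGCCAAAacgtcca
Rfc3, chr5:151651200-151651229, minus strand: acgtcgcacgcTTTCGCGCtcGCGGGAAAa
Brca2, chr5:150522442-150522471, plus strand: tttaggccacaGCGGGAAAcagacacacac
Uhrf1, chr17:56304117-56304146, plus strand: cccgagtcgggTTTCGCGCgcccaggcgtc
Cdt1, chr8:122568035-122568064, plus strand: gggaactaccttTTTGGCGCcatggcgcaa
Mcm6, chr1:128359797-128359826, minus strand: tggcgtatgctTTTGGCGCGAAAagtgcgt
Orc3, chr4:34614965-34614994, minus strand: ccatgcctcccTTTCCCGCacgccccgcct
Dnmt1, chr9:20952824-20952853, minus strand: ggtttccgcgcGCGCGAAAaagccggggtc
In Mcm5 and Mcm6 the capitals hold TTTCGCGC and TTTGGCGC on opposite strands with shared bases, and in Rfc3 the letters GCGGGAAA are the form TTTCCCGC read on the other strand.

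The motif was found in genes of each class of response. It was present in 10 of the 25 genes that fell and had a window, in 1 of the 3 that rose, and in 4 of the 11 that did not pass the test. Cdc6, the remaining gene with a match, was under the filter on low values. Among the other tested genes with a match, 431 in all, 28.1% rose and 32% fell, and among the 9013 tested genes without one 28.4% rose and 35.6% fell. A match describes the letters of the window and not binding by any factor.

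Most of the replication genes were lower in C2C12 Myod1-/- cells, by modest factors. Cdc6 averaged under 0.5 FPKM and was left out, and of the 47 genes tested with limma on log2(FPKM + 0.1), 32 fell and 3 rose at an adjusted p under 0.05. The share that fell was 68.1%, against 33.3% of all 14045 genes tested, and the share that rose was 6.38%, against 27.9% of all genes. The median log2 fold change was -0.57 over the 47 genes and -0.05 over all tested genes, and 36 of the 47 had a negative value. Of the 32 falls, 21 were smaller than 2-fold. The study's threshold for a differentially expressed gene (DEG) asks for a change of 1 or more on the log2 scale, in either direction, at an unadjusted p of at most 0.05. By it 11 of the 47 genes were lower (background 11.7%) and 1 was higher (background 8.67%), numbers that became 4 and 0 with a pseudocount of 1 FPKM in place of 0.1. In 33 genes all Myod1-/- libraries lay below all WT libraries (background 36.5%), and in 4 genes all lay above (background 31.4%), or 8 genes where libraries were scaled to equal sums. The summed level of the 48 genes was 206, 208 and 206 FPKM in C2C12 Myod1-/- libraries and 286, 300 and 295 FPKM in WT libraries. In these bulk samples, fewer cells that express a gene and less of its RNA per cell cannot be told apart.

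**Figure D1:**
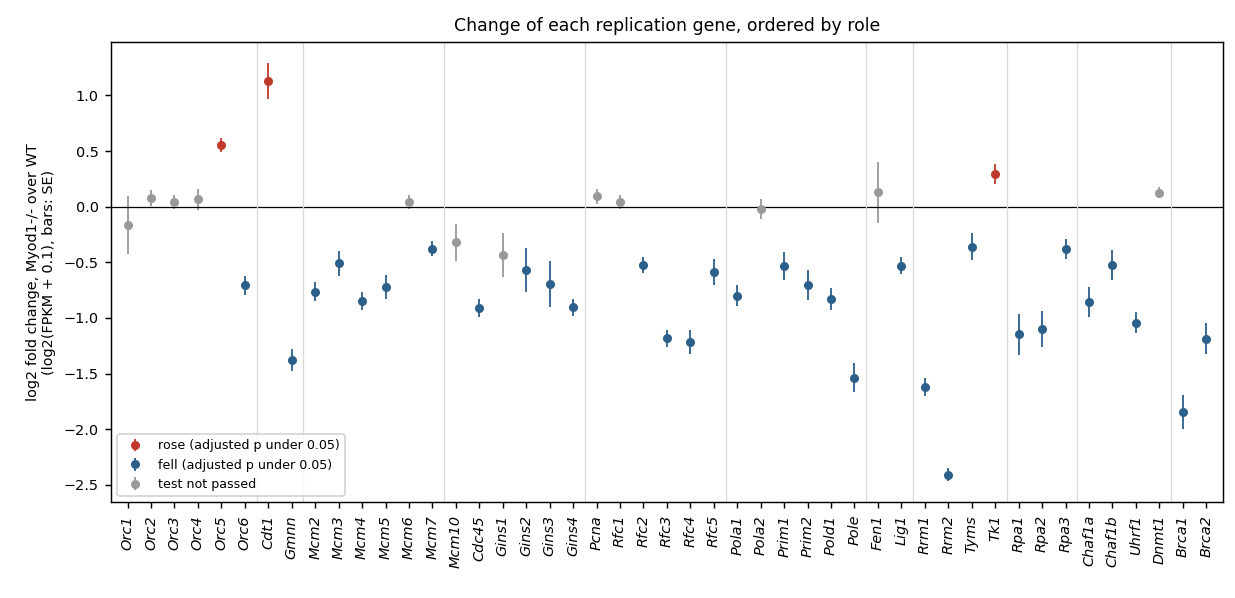
The log2 fold change of the 47 tested replication genes, Myod1-/- over WT on the log2(FPKM + 0.1) scale, with bars of 1 SE and vertical lines between roles. The 32 genes that fell lie between -0.36 and -2.41, the 3 that rose (Orc5, Cdt1 and Tk1) between 0.29 and 1.13, and the 12 grey points did not pass the test.

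The plot of changes by role shows falls in every functional class, with exceptions inside most of them. All members of replication protein A and both repair genes fell, as did 5 of 6 MCM genes and 5 of 6 polymerase and primase genes. Of the origin recognition complex, 1 gene rose, 1 fell and 4 did not pass the test. Replicates were close together: the median coefficient of variation over the tested genes was 6.85% in C2C12 Myod1-/- libraries and 8.39% in WT libraries.

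**Figure D2:**
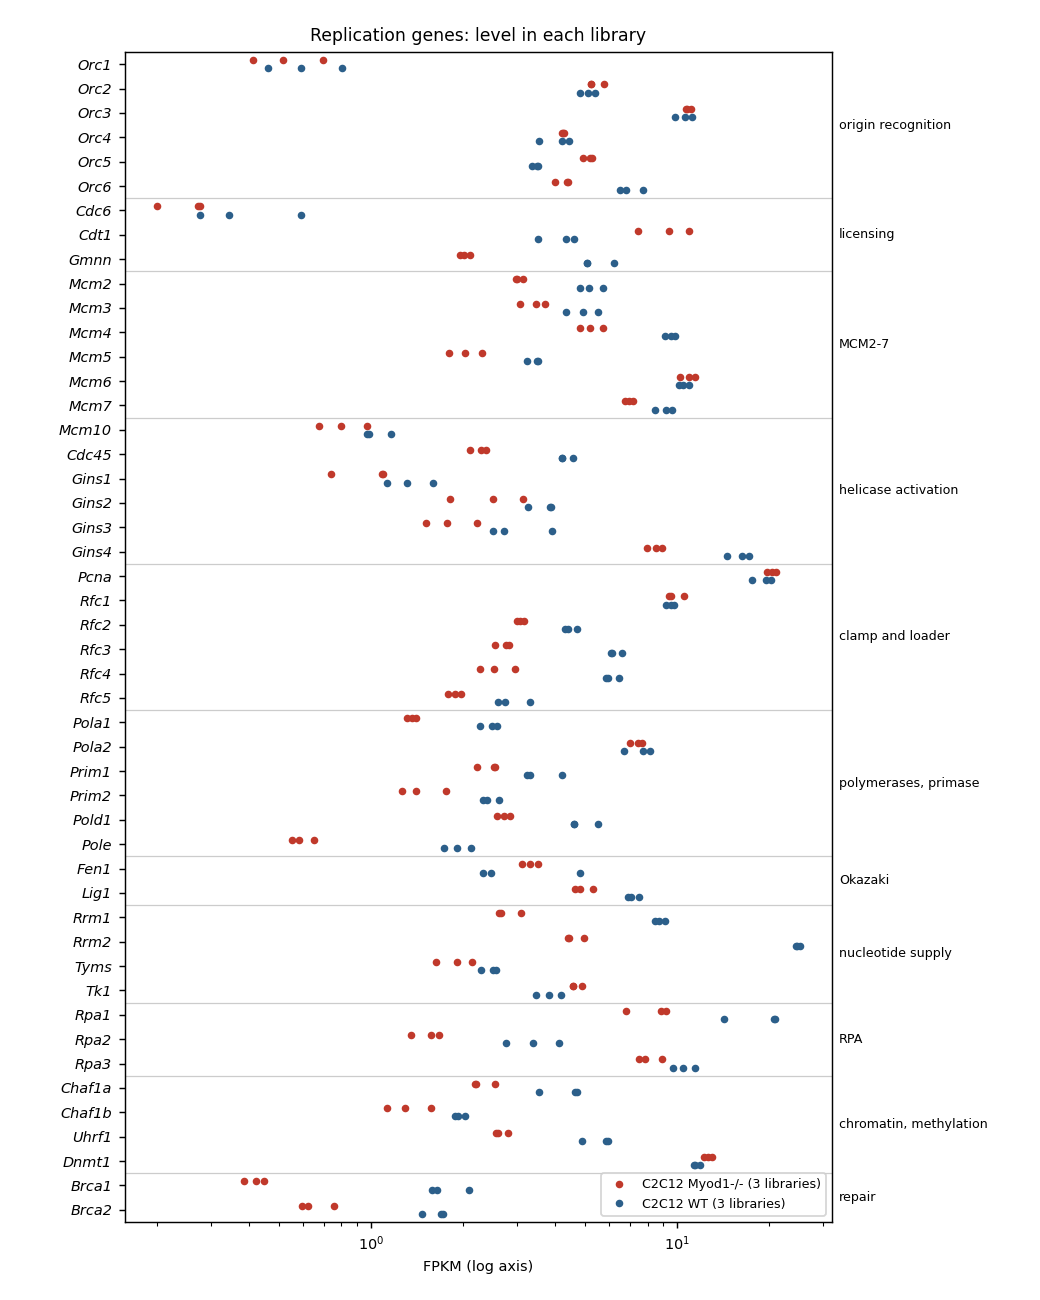
The level of each of the 48 replication genes in every library, in FPKM on a log axis, grouped by role, with C2C12 Myod1-/- libraries in red above C2C12 WT libraries in blue. Rrm2 has the widest separation, at 4.39 to 4.96 FPKM against 24.4 to 25.2 FPKM, while the 2 genotypes overlap for 10 of the tested genes, among them Pcna, Mcm6, Pola2 and Rfc1.

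The largest fall was in ribonucleotide reductase, the enzyme that makes deoxyribonucleotides from ribonucleotides. Rrm2, its regulated small subunit (ENSMUSG00000020649, chr12:24708241-24714146, plus strand, GRCm38), had 4.96, 4.44 and 4.39 FPKM in C2C12 Myod1-/- libraries, against 24.6, 25.2 and 24.4 FPKM in WT libraries. The lowest WT library was thus far above the highest Myod1-/- library, and the fall was 2.41 on the log2 scale (log2 fold change -2.41 ± 0.06 SE, n = 3 each, limma adjusted p = 4.55e-07). Rrm1, the large subunit, had 2.65, 3.09 and 2.63 FPKM in Myod1-/- libraries and 9.12, 8.73 and 8.47 FPKM in WT libraries (log2 fold change -1.62 ± 0.08 SE, limma adjusted p = 8.99e-06). The ratio of Rrm2 to Rrm1 was 1.44 to 1.87 in Myod1-/- libraries and 2.70 to 2.89 in WT libraries, without overlap. Thymidylate synthase, which makes dTMP from dUMP, fell less: Tyms averaged 1.90 ± 0.26 FPKM in Myod1-/- cells and 2.45 ± 0.14 FPKM in WT cells (SD, n = 3 each; log2 fold change -0.36, limma adjusted p = 0.0392). The call of Tyms was lost in 10 of the 16 alternative settings.

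Thymidine kinase, the salvage enzyme for thymidine, moved the other way. Tk1 had 4.58, 4.89 and 4.58 FPKM in C2C12 Myod1-/- libraries, against 4.18, 3.81 and 3.45 FPKM in WT libraries. The libraries did not overlap, but the difference was small (log2 fold change 0.29 ± 0.09 SE, limma adjusted p = 0.0261). The call was lost without any 1 library other than WT replicate 1 (log2 fold changes of 0.23 to 0.31, limma adjusted p of 0.0567 to 0.0818) and with the replicate number as a block (log2 fold change 0.29, limma adjusted p = 0.0529). Over the 4 genes of nucleotide supply, the summed level was 14.1, 14.6 and 13.2 FPKM in Myod1-/- libraries and 40.2, 40.2 and 38.9 FPKM in WT libraries.

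The licensing factor and its inhibitor changed in opposite directions. Cdt1, which brings MCM rings to origins (ENSMUSG00000006585, chr8:122568015-122573554, plus strand), had 9.40, 7.45 and 10.9 FPKM in C2C12 Myod1-/- libraries, against 3.51, 4.33 and 4.62 FPKM in WT libraries. It was the 1 gene of the set that rose past the DEG threshold (log2 fold change 1.13 ± 0.16 SE, n = 3 each, limma adjusted p = 0.00118). Its named transcripts summed to under 50% of the gene's value. Those tested did not pass (log2 fold changes 0.72 and 0.35, limma adjusted p = 0.201 and 0.560). Gmnn (ENSMUSG00000006715, chr13:24751845-24761923, minus strand) had 1.96, 2.11 and 2.01 FPKM in Myod1-/- libraries, against 5.07, 6.21 and 5.06 FPKM in WT libraries (log2 fold change -1.38 ± 0.10 SE, limma adjusted p = 4.71e-05). The ratio of Cdt1 to Gmnn was accordingly 4.796, 3.53 and 5.44 in Myod1-/- libraries and 0.693, 0.698 and 0.913 in WT libraries. Cdt1 was the more abundant of the pair in every Myod1-/- library and Gmnn in every WT library. Cdc6, the other loading factor, was low throughout, at 0.273, 0.200 and 0.276 FPKM in Myod1-/- libraries and 0.343, 0.277 and 0.590 FPKM in WT libraries, and was not tested.

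Of the origin recognition complex, which marks origins and loads the helicase, the 2 genes that changed did so in opposite directions. Orc5 had 4.91, 5.25 and 5.21 FPKM in C2C12 Myod1-/- libraries, against 3.504, 3.36 and 3.49 FPKM in WT libraries (log2 fold change 0.56 ± 0.06 SE, limma adjusted p = 3.73e-04). Orc6, the smallest subunit, had 4.004, 4.37 and 4.40 FPKM in Myod1-/- libraries, against 6.83, 6.52 and 7.72 FPKM in WT libraries (log2 fold change -0.71 ± 0.08 SE, limma adjusted p = 4.70e-04). Neither gene's libraries overlapped between genotypes. The most abundant subunit, Orc3, had 10.7, 10.8 and 11.1 FPKM in Myod1-/- libraries and 10.6, 9.86 and 11.2 FPKM in WT libraries (log2 fold change 0.04 ± 0.06 SE, limma adjusted p = 0.573). Orc2 and Orc4 were within the same narrow range, with log2 fold changes of 0.08 and 0.07. Orc1, the least abundant subunit and one that human cells are known to degrade in S phase, averaged 0.541 ± 0.144 FPKM in Myod1-/- cells and 0.619 ± 0.174 FPKM in WT cells (SD, n = 3 each). Summed over the 6 subunits, the level was 29.5 to 31.3 FPKM in Myod1-/- libraries and 28.8 to 32.5 FPKM in WT libraries.

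The 6 MCM genes encode the subunits of one ring, yet they did not move together. Mcm4 had 4.82, 5.19 and 5.75 FPKM in C2C12 Myod1-/- libraries, against 9.56, 9.14 and 9.81 FPKM in WT libraries, the largest change of the ring (log2 fold change -0.85 ± 0.08 SE, limma adjusted p = 1.35e-04). Mcm2, Mcm5, Mcm3 and Mcm7 fell too, with log2 fold changes of -0.76, -0.72, -0.51 and -0.38, each without overlap between genotypes. Mcm6, the most abundant of the ring (ENSMUSG00000026355, chr1:128331590-128359664, minus strand), had 10.9, 11.4 and 10.2 FPKM in Myod1-/- libraries and 10.1, 10.97 and 10.5 FPKM in WT libraries. Its log2 fold change was 0.04 ± 0.06 SE (95% interval -0.11 to 0.19, limma adjusted p = 0.565), an interval that leaves out the changes measured for the other 5. The ratio of Mcm6 to Mcm2 was 3.40 to 3.67 in Myod1-/- libraries and 1.91 to 2.18 in WT libraries.

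The factors that activate the ring were lower as well. Cdc45 had 2.11, 2.38 and 2.28 FPKM in C2C12 Myod1-/- libraries, against 4.56, 4.21 and 4.20 FPKM in WT libraries (log2 fold change -0.91 ± 0.08 SE, limma adjusted p = 1.14e-04). Gins4, the most abundant GINS subunit, had 7.94, 8.54 and 8.93 FPKM in Myod1-/- libraries, against 14.6, 16.2 and 17.1 FPKM in WT libraries (log2 fold change -0.91 ± 0.08 SE, limma adjusted p = 9.99e-05). The other GINS subunits were less abundant and less certain. Gins2 had 2.51, 3.14 and 1.80 FPKM in Myod1-/- libraries and 3.25, 3.87 and 3.85 FPKM in WT libraries (log2 fold change -0.57, limma adjusted p = 0.0452), and its call was lost in 11 of the 16 alternative settings. It also shares 2758 exonic bases with Gse1, which rose (log2 fold change 0.35), and the library kit kept no strand. Gins3 fell (log2 fold change -0.69, limma adjusted p = 0.0260), a call lost in 4 settings, and Gins1 did not pass the test (log2 fold change -0.43, 95% interval -0.91 to 0.04). Mcm10, which joins the helicase to the polymerases, had a log2 fold change of -0.32 (95% interval -0.72 to 0.08, limma adjusted p = 0.141).

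The small subunits of the clamp loader fell, whereas its large subunit and the sliding clamp did not pass the test. Pcna, the most abundant gene of the set (ENSMUSG00000027342, chr2:132249162-132253314, minus strand), had 19.6, 20.4 and 21.0 FPKM in C2C12 Myod1-/- libraries and 19.6, 20.2 and 17.6 FPKM in WT libraries. Its log2 fold change was 0.09 ± 0.06 SE (n = 3 each, 95% interval -0.06 to 0.25, limma adjusted p = 0.258). Its pseudogene Pcna-ps2, a near copy, was listed at 11.7, 10.9 and 11.1 FPKM in Myod1-/- libraries and 11.04, 10.3 and 10.9 FPKM in WT libraries, so reads may have been split between them and the level of Pcna is uncertain. By immunoblotting, the study reported higher Pcna protein in Myod1-/- cells, a measure that these RNA values do not cover. Rfc4, a small subunit of replication factor C, had 2.95, 2.27 and 2.53 FPKM in Myod1-/- libraries, against 5.96, 6.47 and 5.86 FPKM in WT libraries (log2 fold change -1.21 ± 0.11 SE, limma adjusted p = 1.16e-04). Rfc3 fell by nearly as much (log2 fold change -1.18), and Rfc5 and Rfc2 fell with log2 fold changes of -0.59 and -0.52. Rfc1, the large subunit, averaged 9.82 ± 0.59 FPKM in Myod1-/- cells and 9.52 ± 0.28 FPKM in WT cells (SD, n = 3 each; 95% interval of the log2 fold change -0.11 to 0.19). The ratio of Rfc1 to Rfc4 was 3.24 to 4.62 in Myod1-/- libraries and 1.48 to 1.64 in WT libraries.

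Among the polymerases, the catalytic subunits fell and an accessory subunit did not pass the test. Pole, the catalytic subunit of the leading strand polymerase epsilon, had 0.553, 0.584 and 0.651 FPKM in C2C12 Myod1-/- libraries, against 2.12, 1.73 and 1.91 FPKM in WT libraries. This was the largest change of the class (log2 fold change -1.54 ± 0.13 SE, limma adjusted p = 8.88e-05). Pold1, the catalytic subunit of polymerase delta, and Pola1, that of polymerase alpha, fell with log2 fold changes of -0.83 and -0.80, and the primase genes Prim2 and Prim1 with -0.70 and -0.54. Pola2, the second subunit of polymerase alpha and the most abundant gene of the class, had 7.02, 7.70 and 7.45 FPKM in Myod1-/- libraries and 6.68, 8.13 and 7.72 FPKM in WT libraries. Its log2 fold change was -0.02 ± 0.09 SE (95% interval -0.23 to 0.19, limma adjusted p = 0.857), and its sign turned in 7 of the 16 alternative settings.

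Of the enzymes that finish Okazaki fragments, Lig1, the ligase that seals them, had 4.65, 4.82 and 5.32 FPKM in C2C12 Myod1-/- libraries, against 6.89, 7.08 and 7.497 FPKM in WT libraries (log2 fold change -0.53 ± 0.07 SE, limma adjusted p = 9.57e-04). Fen1, the flap endonuclease, rested on 1 library. It had 3.30, 3.52 and 3.12 FPKM in Myod1-/- libraries and 4.82, 2.31 and 2.46 FPKM in WT libraries, so that WT replicate 1 stood above, and the other 2 WT libraries below, every Myod1-/- library. The log2 fold change was 0.13 ± 0.27 SE with all libraries (limma adjusted p = 0.709) and 0.46 ± 0.09 SE without WT replicate 1 (limma adjusted p = 0.00838). The gene shares 1909 exonic bases with Gm10143 on the opposite strand, at 0.113 to 0.334 FPKM in Myod1-/- libraries and 0.197 to 0.373 FPKM in WT libraries. Exonic bases, in a number not listed, are also shared with Tmem258 on the opposite strand. Tmem258 had 27.2 to 31.3 FPKM in Myod1-/- libraries and 19.7 to 24.4 FPKM in WT libraries. Unstranded reads of shared bases cannot be assigned to either gene.

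Replication protein A, which coats single-stranded DNA at the fork, fell in all 3 subunits. Rpa1, the large subunit, had 9.20, 8.83 and 6.83 FPKM in C2C12 Myod1-/- libraries, against 14.2, 20.9 and 20.8 FPKM in WT libraries (log2 fold change -1.15 ± 0.18 SE, limma adjusted p = 0.00188). Rpa2 and Rpa3 had log2 fold changes of -1.10 and -0.38, and no subunit's libraries overlapped between genotypes. Of the genes that rebuild chromatin behind the fork, Chaf1a and Chaf1b, subunits of chromatin assembly factor 1, fell with log2 fold changes of -0.86 and -0.52. Chaf1a shares 4648 exonic bases with Ubxn6, which had a log2 fold change of -0.01 (limma adjusted p = 0.956).

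Maintenance methylation split into a gene that fell and one that did not pass the test. Uhrf1, which recognises hemimethylated DNA and recruits the methyltransferase, had 2.55, 2.81 and 2.59 FPKM in C2C12 Myod1-/- libraries, against 5.87, 5.96 and 4.90 FPKM in WT libraries (log2 fold change -1.04 ± 0.10 SE, limma adjusted p = 1.48e-04). Dnmt1, the methyltransferase, had 12.2, 13.0 and 12.6 FPKM in Myod1-/- libraries and 11.4, 11.9 and 11.3 FPKM in WT libraries. The libraries of Dnmt1 did not overlap, but the difference missed the threshold (log2 fold change 0.13 ± 0.05 SE, limma adjusted p = 0.0657). It passed in 3 settings that rescaled the libraries, with log2 fold changes of 0.16 to 0.20.

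Both repair genes, which load and protect recombination filaments at broken or stalled forks, were among the largest falls. Brca1 (ENSMUSG00000017146, chr11:101488764-101551955, minus strand) had 0.383, 0.448 and 0.422 FPKM in C2C12 Myod1-/- libraries, against 2.10, 1.59 and 1.64 FPKM in WT libraries (log2 fold change -1.85 ± 0.15 SE, n = 3 each, limma adjusted p = 8.28e-05). Brca2 had 0.597, 0.759 and 0.625 FPKM in Myod1-/- libraries, against 1.70, 1.47 and 1.71 FPKM in WT libraries (log2 fold change -1.19 ± 0.14 SE, limma adjusted p = 4.18e-04). Only Rrm2 among the tested genes of the set had a larger fall than Brca1. At levels this low, the pseudocount of 0.1 FPKM makes the fold change smaller than the ratio of means, which for Brca1 was 4.24 times higher in WT.

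**Figure D3:**
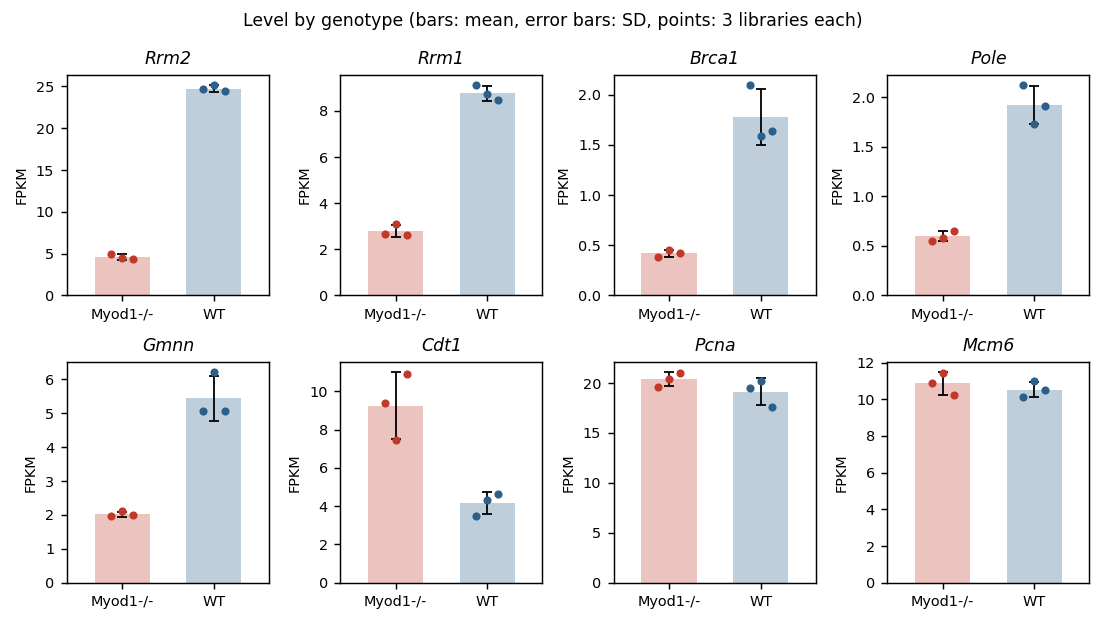
Levels of 8 replication genes in FPKM on linear axes that start at 0, with C2C12 Myod1-/- libraries left of C2C12 WT libraries. Bars are means, error bars SD and points the 3 libraries: Rrm2, Rrm1, Brca1, Pole and Gmnn were lower without overlap, Cdt1 was higher without overlap, and Pcna and Mcm6 overlapped.

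The bars for these 8 genes put the extremes next to the genes that did not pass the test. Rrm2 averaged 4.59 ± 0.31 FPKM in C2C12 Myod1-/- cells and 24.8 ± 0.37 FPKM in WT cells, and Pcna averaged 20.4 ± 0.70 FPKM in Myod1-/- cells and 19.1 ± 1.35 FPKM in WT cells (SD, n = 3 each).

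Another 73 genes of the same pathway and of the cell cycle were read from a list that was also chosen with earlier results of these data known. Of the 68 that were tested, 40 fell and 7 rose (58.8% and 10.3%, against 33.3% and 27.9% of all genes), and the median log2 fold change was -0.56. The rises were 13 with quantile normalization and 12 with libraries scaled to equal sums. Proliferation markers fell most, in 6 of 6 genes. Mki67, which is present in cycling cells, averaged 1.71 ± 0.11 FPKM in C2C12 Myod1-/- cells and 13.4 ± 1.26 FPKM in WT cells (SD, n = 3 each; log2 fold change -2.89 ± 0.09 SE, limma adjusted p = 1.16e-06). The mitotic kinases Aurkb (log2 fold change -3.26 ± 0.18 SE, limma adjusted p = 1.31e-05), Bub1 (-2.82 ± 0.11 SE, adjusted p = 3.00e-06) and Plk1 (-2.80 ± 0.08 SE, adjusted p = 7.73e-07) each had a larger fall than any gene of the replication set. The part of these markers in the falls of the replication genes was not tested.

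G1/S regulators were divided. Ccna2, the cyclin of S phase and G2, had the largest fall of the list, with 1.10, 0.852 and 1.29 FPKM in C2C12 Myod1-/- libraries and 12.3, 13.1 and 13.5 FPKM in WT libraries (log2 fold change -3.48 ± 0.14 SE, limma adjusted p = 3.60e-06). E2f2, an activating E2F, had 0.293, 0.294 and 0.154 FPKM in Myod1-/- libraries and 2.34, 2.41 and 2.35 FPKM in WT libraries (log2 fold change -2.86 ± 0.20 SE, limma adjusted p = 4.08e-05), and E2f7 and E2f8, repressive family members, fell with log2 fold changes of -2.42 and -1.83. E2f3 rose by 1.23 (SE 0.06, limma adjusted p = 8.99e-06), with 12.9 to 13.6 FPKM in Myod1-/- libraries and 5.27 to 5.95 FPKM in WT libraries. E2f1 and the cyclins E did not pass the test: E2f1 averaged 10.7 ± 0.36 FPKM in Myod1-/- cells and 10.1 ± 0.21 FPKM in WT cells (SD, n = 3 each), and Ccne1 and Ccne2 had log2 fold changes of -0.02 and 0.03.

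Of genes that protect the fork 5 of 6 fell, among them Clspn (log2 fold change -1.34) and Chtf18 (-2.50), and of repair and topology genes 10 of 11 fell, among them Top2a (-2.77) and Fancd2 (-2.52). The other polymerase subunits were mixed: Pold3, Pold4 and Pole2, accessory subunits of polymerases delta and epsilon, rose by 0.90, 0.57 and 0.40, while Pold2 and Pole3 fell with log2 fold changes of -0.94 and -0.56. Mcmbp, which binds MCM proteins, rose by 1.04, with 14.2 to 14.7 FPKM in C2C12 Myod1-/- libraries and 6.45 to 7.42 FPKM in WT libraries. In nucleotide supply, Dck, a salvage kinase, fell by 1.57, whereas Dut, which hydrolyses dUTP, and Samhd1, which degrades deoxynucleotides, rose by 1.06 and 0.92. Samhd1 had 20.2 to 21.6 FPKM in Myod1-/- libraries, against 10.6 to 11.3 FPKM in WT libraries, a direction opposite to that of Rrm1 and Rrm2.

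**Figure D4:**
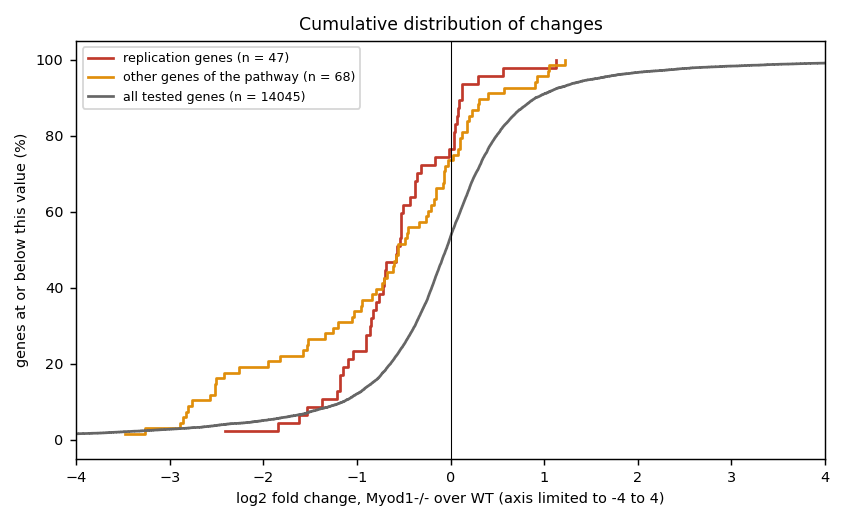
Cumulative distribution of log2 fold changes, Myod1-/- over WT, of the 47 tested replication genes, the 68 other genes of the pathway and all 14045 tested genes, with the horizontal axis limited to -4 to 4. The medians are -0.57, -0.56 and -0.05, and the replication genes end at -2.41 while the other genes of the pathway reach -3.48.

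The 3 curves show how the sets differ in shape. The replication genes and the other pathway genes had nearly equal medians, but the list with proliferation markers extended to larger falls. Changes in either direction were common in this comparison, where 61.1% of all tested genes rose or fell, so passing the test is common for a gene here.

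The transcript table of the same libraries, which is not independent of the gene table, listed 255 named transcripts of these genes, of which 108 from 46 genes were abundant enough to test. Transcripts fell in 23 cases from 22 genes and rose in 1 (backgrounds of 9.3% and 9.57% of 41216 transcripts). The main Rrm2 transcript (ENSMUST00000020980) had 5.96, 5.23 and 5.16 FPKM in C2C12 Myod1-/- libraries, against 30.5, 31.3 and 30.4 FPKM in WT libraries (log2 fold change -2.48, limma adjusted p = 8.92e-05). The transcript that rose was one of Tk1 (ENSMUST00000150027), with 3.77, 3.92 and 4.38 FPKM in Myod1-/- libraries and 1.83, 1.79 and 1.496 FPKM in WT libraries (log2 fold change 1.20, limma adjusted p = 0.00536). This transcript held 28.7% of the Tk1 total in Myod1-/- cells and 16% in WT cells. The most abundant Tk1 transcript (ENSMUST00000026661) held 36.5% in Myod1-/- cells and 50.3% in WT cells. It did not pass the test (log2 fold change -0.05, limma adjusted p = 0.907). The main Mcm4 transcript (ENSMUST00000023353) did not repeat the fall of its gene. It had 4.77, 5.12 and 4.84 FPKM in Myod1-/- libraries and 2.24, 6.16 and 4.62 FPKM in WT libraries (log2 fold change 0.29, limma adjusted p = 0.648). It held 99.85% of the named Mcm4 total in Myod1-/- cells and 99.33% in WT cells. In WT libraries the Mcm4 gene was listed at 9.56, 9.14 and 9.81 FPKM, well above this transcript. In Myod1-/- libraries the gene was listed at 4.82, 5.19 and 5.75 FPKM, nearer to the transcript. The transcript values therefore cannot test the fall of the gene. Assignment to transcripts was unstable between replicates for several genes. The Fen1 transcript ENSMUST00000025651 was listed at 1.97, 1.78 and 1.90 FPKM in Myod1-/- libraries, against 4.13, 0.0196 and 0.0117 FPKM in WT libraries, so that WT replicate 1 stood apart from the other WT libraries for this transcript too. Over the 6 libraries together, the named transcripts of Cdc45 and Cdt1 summed to under 50% of the gene's value. None of them is described beyond the tested Cdt1 transcripts given above.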

How the data were processed

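Total RNA of C2C12 Myod1-/- and C2C12 WT cells was sequenced after removal of rRNA, with a kit that keeps no strand. The submitters' processing notes name bcl2fastq, fastp, FastQC, HISAT2, TopHat and the build GRCm38, and the methods name StringTie, with versions not given in the sources used here. FPKM, fragments scaled to transcript length and to the mapped fragments of the library, were computed by the authors and used as deposited, for 28892 genes and 92513 transcripts, of which 11474 carry no Ensembl ID and were assigned to no gene. FPKM are shares of a library, and no counts were used. The deposited columns have short names, and were assigned to samples through the headings of the study's list of called genes, whose 3200 genes found in the table matched in all 6 columns within a relative tolerance of 0.001.

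With R 4.3.3 and limma 3.58.1, log2(FPKM + 0.1) was fitted by genotype (lmFit, eBayes with an intensity trend) for the 14045 genes whose mean over the 6 libraries reached 0.5 FPKM, and p-values were adjusted by Benjamini-Hochberg over all of them. Rose and fell mean an adjusted p under 0.05, and 95% intervals are unadjusted. Simulated data with known changes were used to test this fit. The depth of each library was read from the steps between low FPKM values, of which 98.7% to 98.9% were whole multiples within 0.05 of a step. Python 3.11.15 with numpy 2.4.6, pandas 2.3.3 and scipy 1.17.1 was used for summaries, and matplotlib 3.10.9 for plots. Promoter windows are from RefSeq (GRCm38.p6). Gene bounds and shared exonic bases are from GENCODE, whose bounds equal those of the table for 46 of the 48 genes.

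The members and gene lists were chosen with earlier results of these data known. Full statistics were given to Pcna, to the most abundant gene and the gene with the largest change of each role, to the 5 largest rises and falls that passed the test (3 genes rose), and to 6 other genes of the pathway with the largest changes. Other values were chosen after they were seen. Replicate numbers are shared between genotypes. The deviations of same-numbered libraries from their genotype means correlated at -0.10, -0.14 and -0.03. These values show no sign of pairing, but cannot exclude that same-numbered libraries were handled together. The alternatives tried were other pseudocounts, filters and scalings, no intensity trend, the replicate number as a block, and each library left out in turn.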

Additional observations from a re-analysis of the deposited data

How the results depend on the processing

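Of 352 results for single genes under 16 alternative settings, 335 kept their direction and their side of the threshold. Of 144 summary values, 134 stayed within a wide tolerance, which was 0.051 for medians and a ratio for counts. A count could thus change and still be within it, such as 28 falls against 32. The number of replication genes that fell was 28 with quantile normalization, 31 with equal sums without mitochondrial genes and 32 with either other pseudocount. Leaving out 1 library gave 29 to 31 falls and 2 to 4 rises, among them Fen1 without WT replicate 1. Replicate numbers showed no sign of pairing the libraries. With the replicate block, 30 genes fell and 2 rose (Gins2, Tyms and Tk1 lost their calls). The median log2 fold change was -0.52 centred on the median gene, -0.43 with a pseudocount of 1 FPKM, -0.41 with quantile normalization, -0.50 with equal sums and -0.65 (WT replicate 1) to -0.54 without single libraries, against -0.57 as reported. With a pseudocount of 1 FPKM, 0 genes were higher and 4 lower by the DEG threshold, against 1 and 11, since this pseudocount shrinks fold changes of low genes. Of the other pathway genes, 13 rose with quantile normalization and 12 with equal sums, against 7, and with equal sums 8 replication genes, against 4, lay above all WT libraries. The sign of Pola2 turned with centring (0.032), quantile normalization (0.026), equal sums (0.055), equal sums without mitochondrial genes (0.013) and without Myod1-/- replicate 1, WT replicate 2 or WT replicate 3 (-0.10 to 0.039 over single libraries left out). That of Orc3 turned without WT replicate 2 (-0.00507 to 0.084). The cause was not tested. Cdc6, with a mean under 0.5 FPKM, was too low to test.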
